A study of Homo sapiens with 12 samples.

Results

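TSPO and 7 enzymes of heme synthesis, ALAS1, ALAD, UROS, UROD, CPOX, PPOX and FECH, were followed across HepG2 cells with normal, lowered and raised expression of TST. These 8 genes were taken by name from the 57500 genes counted in every library. TSPO was selected on its measured level, because it rose with TST overexpression in these same libraries, so its values in the overTST cells are given as a description, without a test. The enzymes were chosen as its companions in the pathway.

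Heme is the iron-containing ring that carries oxygen or electrons in haemoglobins, respiratory cytochromes and the cytochrome P450 enzymes of the liver. Its synthesis starts in mitochondria, where ALAS1 (or ALAS2 in red cell precursors) joins glycine to succinyl-CoA in the step that sets the rate in liver. Of the enzymes that follow, ALAD, UROS and UROD act in the cytosol, and CPOX, PPOX and FECH complete the ring and insert iron back in mitochondria. TSPO is a protein of the outer mitochondrial membrane that binds cholesterol and porphyrins, and it is known for high levels in steroid-making cells and macrophages. TST, also called rhodanese, transfers sulfur from thiosulfate to cyanide and is the main mitochondrial route of cyanide removal.

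HepG2 is a human hepatocellular carcinoma line. Each group had 4 libraries. The WT cells were the control, the shTST cells carried a plasmid for short hairpin RNA against TST, and the overTST cells carried a lentiviral vector in which the CMV promoter drives a codon-optimized TST coding sequence. The study's methods give lentiviral transduction of HepG2 cells and blasticidin selection in a passage that covers both plasmids, and delivery of the hairpin plasmid is not described separately. All 3 groups were kept for 24 h in their usual medium, which holds 400 µM glycine. Whether the WT cells carried an empty or control vector is not stated in the sources used here, and so the vector and the change of TST cannot be told apart in either line. The comparisons ask how the transcripts of a mitochondrial pathway that consumes glycine stood when the cyanide-removing enzyme was lowered or raised.

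Libraries held 22911380 to 45120508 counted reads, and each overTST library (22911380 to 27414142) was shallower than each WT library. Mitochondrially encoded genes took 6.91% to 12% of the reads in WT, 6.84% to 8.65% in shTST and 10.8% to 11.7% in overTST. TST stood at 49.2 ± 2.27 CPM (SD, n = 4) in WT, 34.3 ± 1.72 (SD, n = 4) in shTST and 57.3 ± 4.69 (SD, n = 4) in overTST, where its range overlapped that of WT. Its log2 fold change in overTST against WT was 0.24 (standard error 0.062, edgeR adjusted p = 0.00384). CPM are counts scaled to a library of 1000000 reads, with library sizes adjusted by the TMM method. Whether reads from the codon-optimized transgene were counted on TST was not tested. All 9 hepatocyte markers were present at 1 CPM or more in every group, with a summed level of 23662 to 26696 CPM in WT, 24831 to 28828 in shTST and 21419 to 25939 in overTST. Single markers moved within these sums: 6 of the 9 passed in shTST against WT (4 higher, among them AFP at a log2 fold change of 0.49, and 2 lower, among them TTR at -0.33) and 4 in overTST (2 higher and 2 lower, among them APOB at -0.55), by edgeR at an adjusted p of 0.05. These are 66.7% and 44.4% of the markers, where 16.1% and 33.9% of all genes passed. The part of the markers in the results was not tested. All 6 erythroid and all 5 leukocyte markers had at most 10 reads in any library, and ALAS2, the erythroid enzyme, had 1 read in 12 libraries.

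The sequences before the starts of TSPO and of 3 enzymes are shown because TSPO is the gene that was picked, UROD and CPOX moved in opposite directions in overTST cells, and ALAS1 is the enzyme of the rate-setting step. They were taken from RefSeq on GRCh38.p14, 5′ to 3′ on the strand of the gene, and each ends before the gene's start in the count files. Capitals mark 3 short motifs on either strand, the GC box (GGGCGG, read as CCGCCC on the other strand), the CCAAT box (CCAAT or ATTGG) and the TATA box (TATAAA or TTTATA). Copies may overlap, and each was counted.
TSPO, chr22:43151309-43151513, + strand: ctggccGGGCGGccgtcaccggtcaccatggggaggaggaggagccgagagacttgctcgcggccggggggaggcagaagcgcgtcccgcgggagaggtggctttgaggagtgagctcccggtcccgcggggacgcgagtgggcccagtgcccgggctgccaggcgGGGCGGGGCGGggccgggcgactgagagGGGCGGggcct
ALAS1, chr3:52197833-52198082, + strand: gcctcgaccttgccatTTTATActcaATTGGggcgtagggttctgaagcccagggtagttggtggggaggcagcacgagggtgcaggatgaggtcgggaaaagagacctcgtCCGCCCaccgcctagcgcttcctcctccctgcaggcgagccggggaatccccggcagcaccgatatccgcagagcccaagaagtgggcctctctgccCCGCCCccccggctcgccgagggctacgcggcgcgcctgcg
UROD, chr1:45012004-45012146, + strand: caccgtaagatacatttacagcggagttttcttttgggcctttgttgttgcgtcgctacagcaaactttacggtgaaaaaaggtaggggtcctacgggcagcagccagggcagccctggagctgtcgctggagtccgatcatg
CPOX, chr3:98593724-98593861, - strand: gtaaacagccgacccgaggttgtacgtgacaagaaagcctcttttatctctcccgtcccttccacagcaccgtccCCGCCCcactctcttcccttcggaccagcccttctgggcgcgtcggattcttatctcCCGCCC

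The TSPO run was 77.6% G and C with 4 GC boxes, and the UROD run was 53.1% G and C with none of the 3 motifs. In the whole window of 250 bases before a RefSeq start, TSPO, which has 3 such starts, had 6 GC boxes at the start shown and 1 at each of the others. The CPOX window had 3, the ALAS1 window 2 and the UROD window 1. The ALAS1 window also held 1 CCAAT box and 1 TATA box. Of the 35116 windows of this length in the RefSeq table, 42.6% held a GC box, 32% a CCAAT box and 10.7% a TATA box. An ETS core (CCGGAAG or CTTCCGG) and an NRF1 core (GCGCATGC or GCATGCGC) were found in none of the windows of these 4 genes, and in 8.52% and 2.63% of all windows. A match of letters is a description of the window and not a bound site. RefSeq windows were at hand for 7 of the 8 genes, all but UROS.

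TSPO lies on chromosome 22, at 43151514 to 43163242 on the + strand, and is a protein-coding gene with 1455 exonic bases that no other counted gene shares. It was the lowest of the genes in WT cells when levels were set per length, at 1.18 ± 0.0668 RPKM (SD, n = 4), that is CPM per kilobase of exon. This placed it above 28.7% of the 14421 genes tested. The WT libraries held 54, 74, 55 and 55 TSPO reads, the shTST libraries 44, 54, 67 and 53, and the overTST libraries 96, 112, 84 and 58. A mean count in this range carries a counting error of 10.7% to 13.5% for a single library, so small changes of TSPO are not detectable at this depth.

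Scaled to library size, TSPO was 1.68, 1.64, 1.86 and 1.70 CPM in the 4 WT libraries. In shTST it was 1.56, 1.82, 1.95 and 1.77 CPM, inside and around the WT range. In overTST it was 3.57, 4.68, 3.28 and 2.61 CPM, so that the lowest overTST library lay above every WT and shTST library. The means were 1.72 ± 0.0972 CPM in WT, 1.78 ± 0.161 in shTST and 3.53 ± 0.864 in overTST (SD, n = 4 each), and the overTST libraries varied most among themselves, with a coefficient of variation of 24.5%. The fold change of overTST against WT was 2.10, a log2 fold change of 1.07 (standard error 0.17), the 34th highest of the 14421 genes. Without overTST replicate 2, the highest library, it was 0.91, and without replicate 4, the lowest, 1.18. Against shTST the log2 fold change was 1.01 (standard error 0.17). In whole-culture RNA, more cells with TSPO transcripts and more TSPO transcripts per cell cannot be told apart.

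The rule did not use the shTST cells, in which TSPO could be tested. Its fold change there was 1.04 (95% confidence interval 0.824 to 1.32; edgeR quasi-likelihood test, adjusted p = 0.842). Changes from a fall to 0.824 of the WT level up to a rise to 1.32 times that level thus lay inside the interval. The libraries of shTST and WT overlapped. This test shares its WT libraries with the rise in overTST by which TSPO was picked, so it is not independent of that choice.

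Markers of other cell types were low beside the hepatocyte markers. The summed level of 3 endothelial markers was 2.5 to 3.32 CPM in WT, 1.82 to 2.18 in shTST and 3.35 to 3.87 in overTST, and it followed PECAM1 (2.15, 1.62 and 3.25 CPM on average), whereas CDH5 averaged 0.558, 0.301 and 0.227 CPM and VWF had at most 10 reads in any library. The 3 fibroblast markers summed to 21.7 to 25.4 CPM in WT, 16.9 to 19.6 in shTST and 15.8 to 17.7 in overTST, nearly all of it PDGFRB. The part of these genes in the TSPO values was not tested.

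The genes around TSPO that passed the test in overTST cells, MCAT and TTLL12, moved in opposite directions. Within 100000 bases, 4 other genes were expressed highly enough to be tested. MCAT, a mitochondrial malonyl transferase upstream of TSPO, rose by 0.19 on the log2 scale (standard error 0.065, edgeR adjusted p = 0.0275). TTLL12, just downstream, had a log2 fold change of -0.20 in overTST (standard error 0.054, adjusted p = 0.00594) and of -0.26 in shTST (standard error 0.042, adjusted p = 3e-04). TTLL1 had a log2 fold change of 0.12 and BIK, an activator of apoptosis, one of 0.33 in overTST, and neither passed the test (adjusted p = 0.581 and 0.313). Both were low in WT, at 2.32 and 0.788 CPM, with standard errors of 0.16 and 0.25, so small changes could be missed. A shared change of the region was not tested.

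The genes with a short exonic length as a whole stood higher in overTST cells, and TSPO has a short exonic length. Of 1431 tested genes with 1 to 2 kb of exons, 31.7% rose and 2.45% fell in overTST against WT, and their median log2 fold change was 0.18. In this class 0.699% of the genes, 10 in number and TSPO among them, reached a log2 fold change of 1 or more. Among the genes over 8 kb, 6.75% rose and 41.6% fell. After a trend with exonic length had been removed from each library, the log2 fold change of TSPO was 0.90. The part of length in the TSPO values was not tested. In shTST the median of the class of TSPO was 0.034.

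In WT cells the enzymes spanned a wide range of levels per length. UROD was the highest at 36.3 ± 1.18 RPKM, followed by ALAS1 at 16.8 ± 0.61 and CPOX at 14.6 ± 0.201 (SD, n = 4 each). ALAD followed at 8.24 ± 0.521, UROS at 6.41 ± 0.437, FECH at 5.95 ± 0.54 and PPOX at 2.42 ± 0.067 (SD, n = 4 each). Neighbours in this order had separate ranges over the 4 libraries except UROS and FECH, which overlapped. In shTST the order was the same, and ALAD also overlapped with UROS. The order was again the same in overTST, where CPOX was at 11.7 ± 0.382 RPKM and TSPO (2.43 ± 0.594) overlapped with PPOX (2.58 ± 0.141; SD, n = 4 each). ALAS1, the gate of the pathway, was thus the second most abundant of these transcripts per length in all 3 groups.

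In overTST cells UROS and UROD were higher than in WT and CPOX was lower. These last cytosolic steps rose 1.16-fold and 1.13-fold, and CPOX, the first step back in mitochondria, fell to 0.818 of its WT level. ALAS1, ALAD, PPOX and FECH did not pass the test. In all, 3 of 7 enzymes passed an adjusted p of 0.05 (2 higher, 1 lower; edgeR quasi-likelihood test adjusted over 14421 genes), where 33.9% of all genes tested did. The same 3 enzymes had groups that did not overlap, as did 30.4% of all genes. A count of this size is near the background, and it is not particular to the pathway.

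ALAS1, on chromosome 3 at 52198086 to 52214327, read 41.7, 42.1, 41.9 and 45 CPM in WT, and 43.2, 41.4, 41.9 and 41.9 CPM in shTST. In overTST it read 43.1, 42.1, 45.1 and 46.6 CPM. All 3 groups overlapped. Its fold change was 1.05 in overTST (95% confidence interval 0.970 to 1.14; adjusted p = 0.338) and 0.989 in shTST (0.920 to 1.06; adjusted p = 0.864), both from edgeR. A rise of ALAS1 beyond 1.14-fold and a fall below 0.920 of the WT level thus lay outside both intervals. Under the correction for length its log2 fold change in overTST was -0.027 and again did not pass.

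ALAD, the second enzyme, which joins pairs of the ALAS1 product into porphobilinogen, had 38.6 to 44.3 CPM in WT, 37.1 to 39.4 in shTST and 38.3 to 41.1 in overTST. It did not pass in either comparison with WT (edgeR adjusted p = 0.288 and 0.677), with intervals of 0.866 to 1.02 fold and 0.895 to 1.06 fold.

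UROS closes the ring. It read 45.5, 38.6, 42.7 and 43.4 CPM in WT and 46, 49.9, 50.1 and 48.4 CPM in overTST, where every library was above every WT library. In shTST the 4 libraries, at 44.6, 49.2, 49.6 and 41.0 CPM, spread over both ranges. The log2 fold change was 0.22 in overTST (standard error 0.061, edgeR adjusted p = 0.00784) and 0.12 in shTST (standard error 0.064, adjusted p = 0.205). UROS has 6643 exonic bases, the longest of the 8 genes, and its log2 fold change in overTST was 0.30 after the correction for length.

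UROD, which trims the side chains of the ring, read 102, 103, 110 and 107 CPM in WT and 103, 101, 102 and 100 CPM in shTST. In overTST it read 110, 118, 120 and 122 CPM. Per length the overTST libraries began at 37.8 RPKM and the WT libraries ended at 37.7, so the groups were separate by a narrow margin. The log2 fold change in overTST was 0.18 (standard error 0.051, edgeR adjusted p = 0.00856). After the correction for length it was 0.10 and no longer passed (adjusted p = 0.104). In shTST it was -0.054 (standard error 0.043, adjusted p = 0.433).

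CPOX takes the ring precursor through an oxidative decarboxylation between the mitochondrial membranes, and it was the enzyme with the largest change of the 7 in overTST. It read 54.3, 53.5, 53.2 and 52.5 CPM in WT and 44, 41.4, 42.3 and 44.3 CPM in overTST. The shTST libraries, at 49.1, 44.6, 50.6 and 50.1 CPM, lay between these groups and overlapped with neither. The log2 fold change was -0.29 in overTST (standard error 0.054, edgeR adjusted p = 0.000189). In shTST it was -0.13 (standard error 0.051, adjusted p = 0.0769), which did not pass; with a trend with GC content removed from each library it was -0.16 and passed (adjusted p = 0.0305). CPOX shares 311 of its 3666 exonic bases with CLDND1 on the same strand, which had a mean of 558 reads a library against 985 to 2415 for CPOX.

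PPOX and FECH, which oxidize the ring and insert the iron, did not pass in either comparison with WT. PPOX had 11 to 11.6 CPM in WT, 9.95 to 11 in shTST and 11 to 12.6 in overTST (edgeR adjusted p = 0.404 and 0.284). FECH had 24.5 to 30.1 CPM in WT, 27.3 to 29.3 in shTST and 21.0 to 26.1 in overTST (adjusted p = 0.318 and 0.338). B4GALT3, on the opposite strand, covers 24.3% of the exonic bases of PPOX and had a mean of 1339 reads a library, against 264 to 495 for PPOX. Since the use of strand in counting is not stated in the sources used here, the PPOX values are uncertain.

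With TST lowered, none of the 8 genes passed the test, against 16.1% of the 14584 genes tested (edgeR, adjusted p of 0.05). At an unadjusted p of 0.05, 1 of the 8, CPOX, was below the threshold, and DESeq2 and limma-voom also called 0. CPOX alone passed in 4 of the alternatives, the GC correction (adjusted p = 0.0305), the block on replicate number (0.045), and the length (0.0378) and GC corrections (0.0213) with that block. The groups did not overlap for CPOX alone, and they did not overlap for 18.9% of all genes. The log2 fold changes ran from -0.13 (CPOX) to 0.12 (UROS) with a median of -0.035, where the median of all genes was 0.004. TST itself had a log2 fold change of -0.52 in these libraries (standard error 0.055, adjusted p = 3.2e-06).

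Set directly against each other, the 2 engineered lines differed in 4 of the 7 enzymes, where 33.0% of the 14883 genes tested differed (edgeR on all 12 libraries). UROD was 1.17-fold higher in overTST than in shTST (adjusted p = 0.000415) and PPOX 1.16-fold (adjusted p = 0.0304), while CPOX was at 0.897 (adjusted p = 0.0213) and FECH at 0.872 (adjusted p = 0.0335) of the shTST level. The groups did not overlap for the same 4 enzymes, and for 29.1% of all genes. PPOX and FECH lost their calls when GC content was corrected for (adjusted p = 0.302 and 0.127). Only UROD passed when shTST replicate 3 was left out, and 2 of the 7 passed without any single one of shTST replicates 1, 2 and 4 and overTST replicates 3 and 4. UROS, which passed against WT, did not differ detectably between the lines (1.07-fold, 95% confidence interval 0.976 to 1.17, adjusted p = 0.268).

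**Figure D1:**
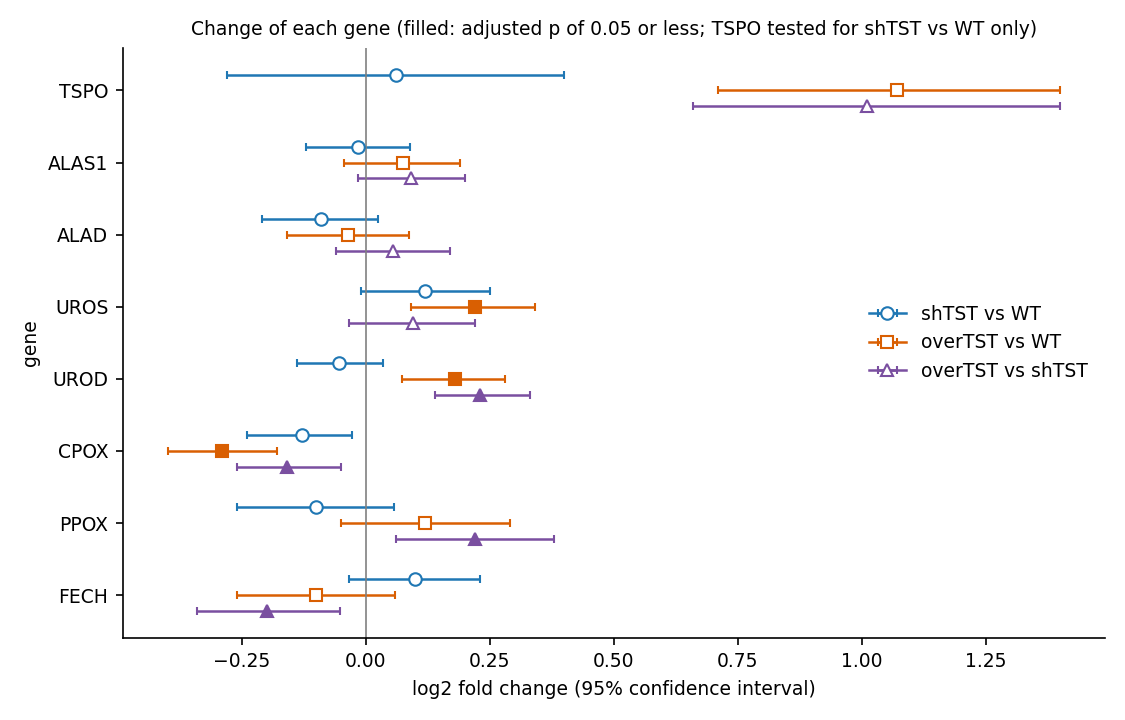
Log2 fold change with its 95% confidence interval for TSPO and the heme synthesis enzymes in the 3 comparisons. Filled symbols passed an adjusted p of 0.05; TSPO was tested in shTST against WT only, where it lies at 0.06, and lies near 1 in the others by the choice of the gene.

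Of 17 genes that support heme synthesis in mitochondria by carrying glycine, iron or porphyrins, building iron-sulfur clusters or controlling ALAS1 protein, 8 passed in overTST against WT, 7 higher and 1 lower, with a median log2 fold change of 0.066 against 0.0019 for all genes. This is 47.1% of the list, where 33.9% of all genes passed, 15.7% higher and 18.2% lower. CLPP, the protease that with CLPX acts on ALAS1 protein, rose by 0.25 on the log2 scale (75.4 to 88.1 CPM, standard error 0.055, edgeR adjusted p = 0.00111). TMEM14C, a porphyrin carrier of the inner membrane, rose by 0.22 (109 to 125 CPM, adjusted p = 0.00225), and ABCB10, an inner-membrane transporter needed for heme synthesis, had a log2 fold change of -0.43 (31.3 to 22.9 CPM, adjusted p = 5.17e-05). After the correction for length CLPP and TMEM14C no longer passed (adjusted p = 0.0562 and 0.498), and 3 genes of the list were higher and 2 lower. The shares of all genes given above are from the fit without this correction and cannot be set against these counts. In shTST 1 of the 17 passed, 5.88% of the list against 16.1% of all genes. This was the mitochondrial protease LONP1, at a log2 fold change of -0.17 (246 to 218 CPM, adjusted p = 0.00738). Between the lines 7 passed, 41.2% of the list against 33.0% of all genes. Of these, 6 were higher in overTST, with CLPP (log2 0.34, adjusted p = 3.13e-05) and the carrier SLC25A39 (0.29, adjusted p = 0.000101) first. The 1 lower was ABCB10 (-0.29, adjusted p = 0.0026).

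Of 17 genes of heme breakdown, transport and sensing, 7 passed in overTST (4 higher, 3 lower) and 4 in shTST (2 higher, 2 lower). These are 41.2% and 23.5% of the list, near the 33.9% and 16.1% of all genes, and the median log2 fold changes were 0.071 and -0.079. HMOX1, the inducible heme oxygenase that opens the ring, rose by 0.25 in shTST (60.9 to 72.5 CPM, edgeR adjusted p = 0.00334). In overTST, where its range overlapped that of WT, it rose by 0.15 (adjusted p = 0.0388) and did not pass after the correction for length (adjusted p = 0.623). HPX, the secreted heme-binding protein hemopexin, rose by 0.29 in shTST (22.8 to 27.7 CPM, adjusted p = 0.00663), where the constitutive oxygenase HMOX2 (log2 -0.16, adjusted p = 0.0209) and the biliverdin reductase BLVRB (-0.19, adjusted p = 0.0488) were lower. In overTST the heme-binding protein HEBP2 rose by 0.33 (77.2 to 95.6 CPM, adjusted p = 4.43e-05) and BLVRA, the main biliverdin reductase, by 0.25 (72.9 to 85.1 CPM, adjusted p = 0.00166). BACH1, the heme-sensing repressor of HMOX1, had a log2 fold change of -0.54 (24.8 to 16.9 CPM, adjusted p = 7.87e-05), and ABCG2, which exports porphyrins, one of -0.45 (14 to 10.1 CPM, adjusted p = 0.000221). BLVRA was no longer called after the correction for length (adjusted p = 0.176). Between the lines 8 passed, 47.1% of the list against 33.0% of all genes. Among the 8, HEBP2 (0.37, adjusted p = 5.23e-06) and BLVRA (0.33, adjusted p = 5.49e-05) were higher in overTST. BACH1 (-0.42, adjusted p = 0.000847) and the heme-binding nuclear receptor NR1D2 (-0.38, adjusted p = 0.0157) were lower. HMOX1 was not among the 8 (adjusted p = 0.145), but it passed as lower in overTST after the correction for length (adjusted p = 0.00367).

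Genes that act with TSPO or in the same cholesterol import were tested in 12 of 14 cases, and TSPO2 and TSPOAP1 were too low. In overTST 8 passed, 6 higher and 2 lower, and the median log2 fold change was 0.14 against 0.0019 for all genes. This is 66.7% of those tested, against 33.9% of all genes (15.7% higher, 18.2% lower). DBI, the peptide ligand of TSPO, rose by 0.33 (123 to 153 CPM, standard error 0.073, edgeR adjusted p = 0.000966) and also by 0.22 in shTST (to 143 CPM, adjusted p = 0.0378). VDAC3, a pore of the outer membrane, rose by 0.19 (177 to 199 CPM, adjusted p = 0.00401). ACBD3, the Golgi protein that binds TSPO and a kinase subunit, had a log2 fold change of -0.36 (47.6 to 36.5 CPM, adjusted p = 0.000145), and STARD4, a cholesterol carrier, one of -0.31 (adjusted p = 0.017). After the correction for length 4 of the 12 passed, or 3 higher and 1 lower, and STARD4 did not (adjusted p = 0.0533). The share of all genes that passed under this correction is not given here, and the shares above are from the uncorrected fit. These corrected counts thus cannot be read against a background. In shTST 4 passed, 33.3% of those tested against 16.1% of all genes. The largest of the 3 lower ones was PRKAR1A, the kinase subunit, at -0.27 (220 to 182 CPM, adjusted p = 0.00113). ATAD3A, a protein spanning both mitochondrial membranes, was the only gene of the 4 lists to pass in opposite directions, at -0.14 in shTST (adjusted p = 0.0312) and 0.14 in overTST (adjusted p = 0.0491). Its overTST range overlapped that of WT, and it did not pass there after the correction for length (adjusted p = 0.305). Between the lines 6 of the 12 passed, where 33.0% of all genes did. Of the 6, PRKAR1A (0.33, adjusted p = 4.66e-05) and ATAD3A (0.28, adjusted p = 0.000146) were higher in overTST. ACBD3 (-0.32, adjusted p = 0.000218) and STARD4 (-0.32, adjusted p = 0.0162) were lower.

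Of 13 transcription regulators of ALAS1, 6 were lower in overTST and 0 higher, and 3 were lower in shTST and 0 higher, while ALAS1 itself did not pass in either line. Of all genes, 18.2% were lower and 15.7% higher in overTST, and 9.4% lower and 6.69% higher in shTST. The median log2 fold change of the list in overTST was -0.15, against 0.0019 for all genes. The coactivator NCOA1 (21.1 to 14.8 CPM, log2 -0.49, edgeR adjusted p = 6e-05) and FOXO1, a factor that fasting brings into the nucleus (28.5 to 20.8 CPM, log2 -0.43, adjusted p = 3.77e-05), had the smallest p in overTST. In shTST these were CEBPB (87.4 to 70.5 CPM, log2 -0.31, adjusted p = 0.000722) and the immediate early factor EGR1 (39.7 to 28.2 CPM, log2 -0.50, adjusted p = 0.00504). FOXO1 and EGR1 were lower in both lines. PPARGC1A, the coactivator that links fasting to ALAS1 in liver, had a log2 fold change of -0.43 in overTST (adjusted p = 0.00169) and -0.21 in shTST (adjusted p = 0.131). It is named here after its values were seen. After the correction for length 2 of the list were higher and 5 lower in overTST, a count to which the uncorrected shares above do not apply. Between the lines 6 passed, 46.2% of the list against 33.0% of all genes (16.1% higher, 16.9% lower). CEBPB was higher in overTST (0.33, adjusted p = 0.000868). NCOA1 (-0.45, adjusted p = 7.32e-05) and HNF4A (-0.19, adjusted p = 0.000686) were first among the 5 lower. Of the 4 lists together, 12 of the 59 genes tested passed in shTST, 29 in overTST and 27 between the lines, where 16.1%, 33.9% and 33.0% of all genes passed.

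The transcripts most like TSPO over the 12 libraries, by Pearson's r of log2 CPM among 11528 genes, were GTF2A2 (r = 0.960), LAMTOR1 (0.956), ATP6V0E1 (0.955), BMP4 (0.951) and DCPS (0.947). They moved far less, for instance GTF2A2 from 46.1 CPM in WT to 57.4 in overTST and BMP4 from 164 to 186. Those most like ALAS1 were DDIT4 (r = 0.862), CCNH (0.859), HSD17B2 (0.849), C7orf31 (0.848) and an unnamed gene, ENSG00000280128 (0.844). The 12 points share the 3 groups and the library depth, and with Spearman's rank correlation none of these 5 genes of either list stayed among the first 5. Among the genes of the pathway the r with TSPO was 0.765 for UROD, 0.581 for UROS and 0.571 for PPOX. It was 0.259 for ALAS1, -0.0624 for ALAD, -0.42 for FECH and -0.837 for CPOX. TSPO was picked for its rise in overTST, so a gene that differs there tends to correlate with it by that choice. All r with TSPO are thus a description only.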

How the data were processed

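RNA of 12 HepG2 cultures, 4 each of WT, shTST and overTST, was sequenced from total RNA. The authors deposited whole read counts for each Ensembl gene, along with exons, strand and exonic length, and without normalization. The submitters' processing notes name Trimmomatic 0.36, STAR 2.5.2b, featureCounts, Subread 1.5.2 and GRCh38; the strand setting is not given in the sources used here. Groups came from the labels, the glycine level of the medium and the time from the study's methods. The replicates are taken as separate cultures; the spread between them may in part be technical, and their counts differed beyond sampling noise in each pair (chi-square per degree of freedom 3.79 to 38.9).

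Genes passing filterByExpr were scaled by TMM and tested with edgeR 4.0.16 (quasi-likelihood, Benjamini-Hochberg, two-sided), on 8 libraries for each comparison with WT and on all 12 for overTST against shTST. Standard errors were derived from the fold change and its F statistic. CPM and RPKM were computed over the 12 libraries together, and log2 CPM used a prior count of 2. The procedures were tested on simulated data with known changes.

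The 8 genes, the lists and the tests were chosen with earlier results of these data known. Some results are not reported here. Named were the 8 genes, ALAS2 and TST, from each list the 2 called genes with the smallest p in each comparison and direction, list genes called in opposite directions against WT, and the 5 genes most like TSPO and ALAS1 at 1 or more in average log2 CPM. Genes within 100000 bases of TSPO, HMOX1 in overTST and between the lines, and PPARGC1A were added after the data were seen. The hepatocyte, endothelial and fibroblast markers named singly also lie outside this rule.

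Alternatives were DESeq2 1.42.0, limma-voom (limma 3.58.1), RLE and upper-quartile scaling, no filter, a filter of over 1 CPM in 4 libraries, another set of libraries, omission of mitochondrially encoded genes, a block on replicate number, and corrections for length and GC content (lowess, span 0.3; GC of the longest GENCODE 29 transcript, 56845 genes) with and without the block, and leaving out each library. R 4.3.3, Python 3.11.15 and matplotlib 3.10.9 were used.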

Additional observations from a re-analysis of the deposited data

Results flagged for a closer look

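In 24 groups of 4 libraries (8 genes in 3 groups), 2 had a library far from the other 3, by the gap to its neighbour as a share of the range (Dixon's test at its 95% critical value); chance alone marks about 1 group in 20. ALAS1 was 45 CPM in WT replicate 4, against 41.7 to 42.1 CPM in the other WT libraries. PPOX was 11.6 CPM in WT replicate 3, against values that round to 11 CPM in the others. Mitochondrially encoded genes took 12% of the reads of WT replicate 4, the highest share of the 12 libraries, and the part of this in the ALAS1 value was not tested.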

How the results depend on the processing

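In the comparison of shTST with WT, 1 of the 8 genes (CPOX) passed with GC correction, with the replicate block, with length correction and replicate block, and with GC correction and replicate block, and 0 in the main analysis and in the other alternatives. Whether the replicate numbers pair the samples is not stated in the labels. The correlations of same-numbered deviations ran from -0.122 to 0.208 for WT and shTST. There 3 of 4 WT libraries correlated best with their own number, and 1 of 4 did for WT and overTST. These values do not decide whether the samples were paired. With the block 2980 genes were called in shTST and 5166 in overTST.

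In overTST against WT, 3 of 7 enzymes passed without any single library, and 2 after length correction, with and without the block, since UROD was lost. For overTST against shTST, 2 passed with GC correction, with and without the block, and 1 to 4 when single libraries were left out. PPOX was also lost there without a filter (adjusted p = 0.167), and CPOX without shTST replicates 1, 3 or 4 or overTST replicates 2 or 3 (adjusted p up to 0.0669). UROS passed there under length correction with the block (adjusted p = 0.042).

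Leaving out single libraries, the genes called in shTST were 1513 (without shTST replicate 1) to 2336, in overTST 3979 to 5263 and between the lines 3986 to 5265, and those of the 4 lists were 7 to 12, 23 to 30 and 22 to 30. The 7 came without WT replicate 4, shTST replicate 1 or shTST replicate 3. The log2 fold change of TSPO in overTST against WT ran from 0.89 (length correction with the block) to 1.18. No called change of the 8 genes turned its direction under any alternative. At 44 to 112 reads a library, depth limits TSPO more than the enzymes.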
